A study of Mus musculus with 10 samples.

Results

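The 9 genes described here build iron-sulfur clusters in mitochondria: Nfs1, Iscu, Lyrm4, Hscb, Isca1, Isca2, Iba57, Nfu1 and Bola3. They were taken by name from a list of the pathway by a rule that uses no measured value, although the list was drawn up with earlier results of these data known, and all 9 were found among 24972 genes of the deposited tables. They were measured by total RNA sequencing of frozen cortex, in 5 Atad3 control littermates and 5 Atad3 nKO animals. All were C57BL/6 males, 2.5 months old, perfused with cold PBS before the brain was dissected. The labels neither spell out nKO nor name a driver line or the deleted exons, so they do not say which cells lost the gene. Each library was 1 animal, and replicate numbers only name animals.

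Iron-sulfur clusters are small inorganic cofactors that carry electrons or shape active sites, and mitochondria assemble them for their own enzymes and supply a sulfur-containing product for assembly in the cytosol. NFS1 takes sulfur from cysteine, LYRM4 holds NFS1 in its active form, and ISCU is the scaffold on which the first, smaller cluster forms. HSCB, a J-domain co-chaperone, then passes loaded ISCU to the chaperone HSPA9. ISCA1, ISCA2 and IBA57 make the larger, cubane cluster, and NFU1 and BOLA3 help to deliver it to enzymes such as lipoyl synthase and respiratory complexes. Inherited loss of several of these proteins in humans causes early brain disease with failure of lipoylated enzymes and of the respiratory chain. ATAD3A, the targeted protein, is an ATPase of the mitochondrial inner membrane.

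The promoter windows of Nfs1, Isca1 and Isca2 are shown because Nfs1 and Isca1 had the smallest p-values of the 9 genes, in opposite directions, and Isca2 is the partner of Isca1. Each window runs from 250 bases before to 50 bases after an annotated start and comes from RefSeq on GRCm38.p6. Nfs1 lies at chr2:156144137-156144436 on the minus strand, Isca1 at chr13:59769740-59770039 on the minus strand and Isca2 at chr12:84773020-84773319 on the plus strand. Capitals mark matches to CCGGAAGT, a core of sites for ETS factors such as GABPA, or to a core of sites for NRF1 (GCGCA, any base, then GCGC), on either strand. Both factors are known regulators of nuclear genes for mitochondria.
Nfs1: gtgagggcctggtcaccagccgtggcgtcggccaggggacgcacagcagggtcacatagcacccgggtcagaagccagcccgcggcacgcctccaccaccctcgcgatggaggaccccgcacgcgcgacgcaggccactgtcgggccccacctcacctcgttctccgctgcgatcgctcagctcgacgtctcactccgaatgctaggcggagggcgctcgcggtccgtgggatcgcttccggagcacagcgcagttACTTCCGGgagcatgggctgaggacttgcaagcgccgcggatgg
Isca1: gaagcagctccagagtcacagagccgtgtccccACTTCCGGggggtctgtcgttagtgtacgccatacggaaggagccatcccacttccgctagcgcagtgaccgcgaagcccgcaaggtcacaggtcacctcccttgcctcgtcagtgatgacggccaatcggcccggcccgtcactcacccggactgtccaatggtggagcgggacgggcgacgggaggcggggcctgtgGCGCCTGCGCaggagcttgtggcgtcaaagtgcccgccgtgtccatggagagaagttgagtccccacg
Isca2: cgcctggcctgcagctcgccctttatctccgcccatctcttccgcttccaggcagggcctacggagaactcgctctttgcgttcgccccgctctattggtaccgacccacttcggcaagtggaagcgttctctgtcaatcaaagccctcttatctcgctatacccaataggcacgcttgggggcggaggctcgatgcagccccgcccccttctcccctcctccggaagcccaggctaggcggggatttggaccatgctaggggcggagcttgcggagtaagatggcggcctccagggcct

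The ETS letters were in windows of Nfs1 and Isca1, that is 2 of the 7 genes with a window in the RefSeq table, against 3.89% of all 32851 windows and 8.4% of 11196 tested genes. In Nfs1 the match began 7 bases after the start and in Isca1 at position -217 relative to it. The NRF1 letters were in windows of Isca1 and Nfu1, again 2 of 7, against 4.6% of all windows and 10.8% of tested genes. The Isca1 match began at position -18, and no marked match of one motif overlapped the other. A match describes letters in a window and shows no binding.

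Closely spaced, divergent starts were a shared feature of position. Of the 9 genes, 6 had the start of a gene on the opposite strand within 1000 bases, against 25.1% of 13643 tested protein-coding genes in the GENCODE annotation of GRCm38. The partners were Romo1 for Nfs1, Sart3 for Iscu, Fars2 for Lyrm4, Chek2 for Hscb, Npc2 for Isca2 and the antisense RNA Etohd2 for Isca1. Nfs1 and Romo1, a small inner membrane protein gene, overlap head to head by 147 bases. Romo1 averaged 116 ± 26.8 TPM in controls against 105 ± 13.4 TPM in nKO (SD, n = 5 each), and its log2 fold change was -0.34 with SE 0.22 (edgeR adjusted p = 0.843). Etohd2 averaged 0.999 ± 0.280 TPM in controls against 0.766 ± 0.265 TPM in nKO (SD, n = 5 each), far below Isca1. Libraries were stranded, but no source used here says whether the counting used strand, so reads of overlapping opposite genes may not be fully separated.

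The levels of the 9 genes, compared as TPM (the deposited abundance unit, which corrects for transcript length), spanned 26.5-fold in control cortex. The scaffold gene Iscu was highest at 150 ± 15.6 TPM (SD, n = 5), followed by Isca1 at 129 ± 36.3 TPM (SD, n = 5). These neighbours were not separated: Iscu was the higher in 3 of 5 controls and in 0 of 5 nKO libraries. Nfu1 came next at 69.4 ± 7.11 TPM, then Isca2 at 51.9 ± 5.21 TPM, Nfs1 at 46.0 ± 2.58 TPM and Lyrm4 at 43.0 ± 6.34 TPM (SD, n = 5 each). Control ranges of Nfu1 and Isca2 did not overlap, whereas those of Isca2 and Nfs1 and those of Nfs1 and Lyrm4 did. The cysteine desulfurase and its stabilising subunit thus stood at nearly the same transcript level. Hscb at 14.4 ± 1.93 TPM and Bola3 at 11.9 ± 1.78 TPM overlapped, and the folate-binding protein gene Iba57 was lowest at 5.66 ± 1.11 TPM (SD, n = 5 each), below every other member in all controls.

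**Figure D1:**
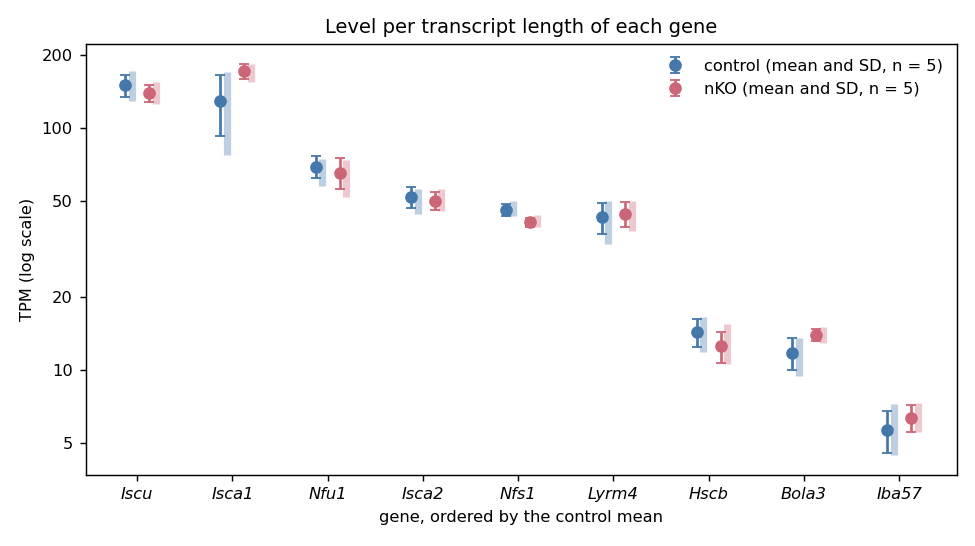
TPM of each gene on a log axis in control and nKO cortex; points and whiskers are the mean and SD of 5 libraries, and the pale bars beside them run from the lowest to the highest library. The genes form a high pair (Iscu and Isca1), a middle group from Nfu1 to Lyrm4 and a low group from Hscb to Iba57.

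For the comparison of genotypes, values are CPM (counts relative to library size, with TMM scaling between libraries and no length correction), with depths of 14812639 to 24161361 estimated counts per library and 36 to 2301 reads per member and library. The targeted gene Atad3a averaged 23.7 ± 1.87 CPM in controls against 11.5 ± 1.97 CPM in nKO (SD, n = 5 each), and fell in edgeR's quasi-likelihood test (adjusted p = 0.00634). In the same test over 14378 genes, 0 of the 9 iron-sulfur genes passed an adjusted p of 5%, where 0.0139% of all genes passed. DESeq2 and limma-voom also called 0 of 9. At an unadjusted p under 0.05 there were 2 of 9, against 5.65% of all genes. These were Nfs1, lower in nKO (2.29% of all genes were lower at that threshold), and Isca1, higher (3.36%). All 9 passed the count filter. Of these, 6 were lower and 3 higher in nKO, where 52.2% of all genes were lower and 47.8% higher, and their median log2 fold change was -0.09, against -0.01 over all genes. The 95% interval lay within 1.5-fold of no change for 7 of the 9, and for 75.7% of all genes. Whether fewer cells of a type or less RNA per cell underlies any difference cannot be told apart in such whole-tissue libraries.

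**Figure D2:**
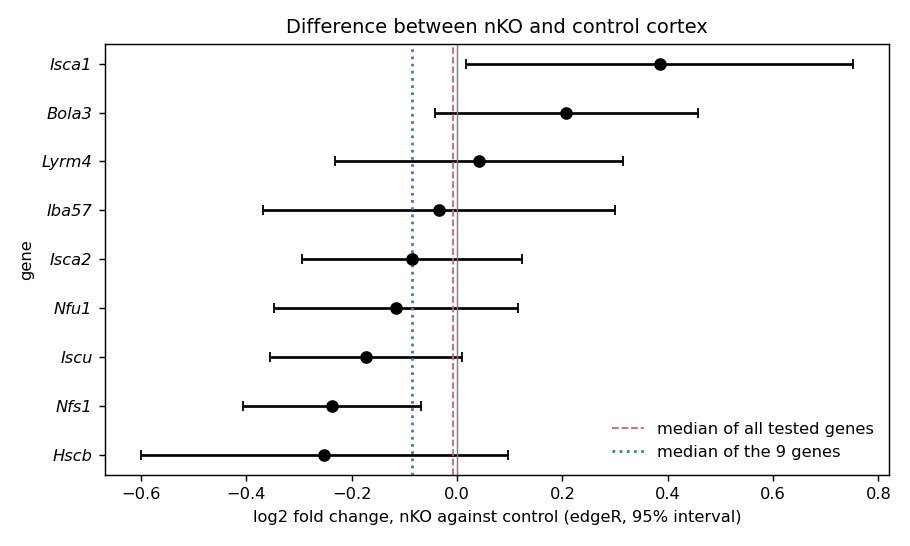
Log2 fold change of each gene between nKO and control cortex with its 95% interval (edgeR, 5 libraries per group); vertical lines mark 0, the median of all tested genes and the median of the 9 genes. Only the intervals of Nfs1 (below 0) and Isca1 (above 0) leave out 0, before any adjustment for the number of genes tested.

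The sulfur donor and scaffold genes came first. Nfs1 (NCBI gene 18041; chr2:156123637-156144202), the cysteine desulfurase gene, stood at 34.97, 30.5, 34.4, 31.8 and 32.9 CPM in controls 1 to 5 and at 30.3, 28.6, 28.1, 25.2 and 27.4 CPM in nKO 1 to 5. Every nKO library was below every control, the only such case among the 9 genes, where 1.38% of all tested genes had groups without overlap (0.675% lower and 0.702% higher in nKO). The nKO mean was 84.8% of control, and the log2 fold change was -0.24 with SE 0.08 and a 95% interval from -0.41 to -0.07 (edgeR adjusted p = 0.820). The gap was narrow, from 30.3 CPM in nKO 1 to 30.5 CPM in control 2, and as TPM the groups overlapped, with controls from 43.5 to 49.9 and nKO from 39.1 to 43.9. The difference did not pass the test, and it came to -0.19 without control 1 and nKO 4 and to -0.19 without controls 1 and 3.

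Iscu (NCBI gene 66383; chr5:113772418-113778288) stood at 40.0, 38.6, 43.7, 40.0 and 37.6 CPM in the controls and at 37.6, 37.1, 32.8, 30.9 and 39.2 CPM in nKO. The groups overlapped, with nKO 3 and nKO 4 lowest. Between genotypes Iscu differed by -0.17 on the log2 scale, with SE 0.08 and a 95% interval from -0.35 to 0.01 (edgeR adjusted p = 0.820). Lyrm4 (NCBI gene 380840; chr13:35978797-36117357) ranged from 19.0 to 28.9 CPM in controls and from 20.7 to 29.6 CPM in nKO. The log2 fold change of 0.04, with SE 0.13 and a 95% interval from -0.23 to 0.32 (edgeR adjusted p = 0.973), turned to -0.037 without control 1, -0.031 without nKO 4 and -0.0055 without nKO 5. For Lyrm4 no direction held under these settings, and the interval lay within 1.5-fold of no change.

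Hscb (NCBI gene 100900; chr5:110829070-110839793), the co-chaperone gene, was covered by few reads. It stood at 3.62, 3.52, 3.44, 2.87 and 2.52 CPM in controls and at 2.26, 2.72, 2.73, 3.22 and 2.46 CPM in nKO, with overlap. The difference was -0.25 on the log2 scale, with SE 0.16 and a 95% interval from -0.60 to 0.10 (edgeR adjusted p = 0.841). Its point estimate was close to that of Nfs1, but its SE was larger, and without controls 1 and 3 it came to -0.14.

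**Figure D3:**
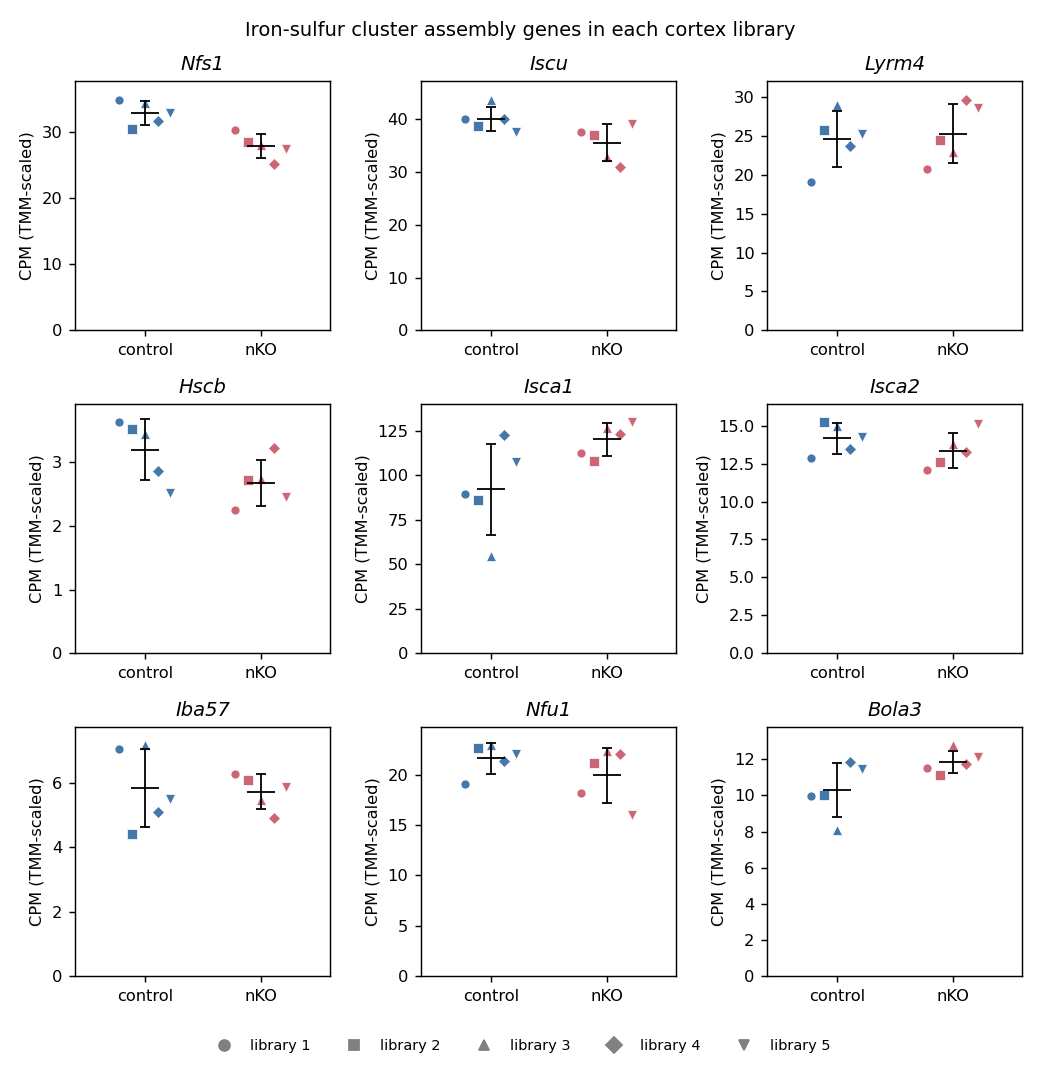
TMM-scaled CPM of each of the 9 genes in every control and nKO library, with a marker shape for each library number; bars give the mean and SD of 5 libraries, and numbers do not pair animals. Nfs1 separates the groups, and for Isca1 the 5 nKO libraries sit close together between 108 and 130 CPM while controls spread from 54.7 to 122 CPM.

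Among the genes for the cubane cluster, Isca1 and Isca2 encode paralogous A-type proteins that work together. Isca1 (NCBI gene 69046; chr13:59755415-59769789) stood at 89.8, 86.1, 54.7, 122 and 107 CPM in controls and at 113, 108, 127, 123 and 130 CPM in nKO. Control 3 was lowest, and control 4 lay within the nKO range. The nKO mean was 130% of control, and the log2 fold change was 0.38 with SE 0.17 and a 95% interval from 0.02 to 0.75 (edgeR adjusted p = 0.820). Without control 3, which was also the deepest library with 24161361 counts, the value was 0.24, and without controls 1 and 3 it was 0.19. The spread between animals was 27.7% of the mean in controls, the highest of the 9 genes, and 7.75% in nKO.

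A near copy limits the reading of Isca1. AK157302 (chr13:21495223-21497146), which GENCODE lists as protein-coding and RefSeq as a pseudogene, matched the Isca1 transcript at 99.0% identity over 1914 of 1942 bases. No gene of that name was listed among the 24972 genes, so its own level could not be read. Reads counted for Isca1 may come from either place. Iscu and Nfu1 also have processed pseudogenes, with 98.4% identity over 504 bases and 95.7% identity over 771 bases. Nfs1 shares 258 bases with the overlapping transcript unit Gm28036. In a search of annotated transcripts at 95% identity over at least 150 bases, the other 5 genes had no such match.

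Isca2 (NCBI gene 74316; chr12:84773230-84775089) ranged from 12.9 to 15.2 CPM in controls and from 12.1 to 15.1 CPM in nKO, and the groups overlapped over nearly their whole range. The log2 difference of Isca2 was -0.09, with SE 0.10 and a 95% interval from -0.29 to 0.12 (edgeR adjusted p = 0.897), and it came to -0.05 without nKO 1. Iba57 (NCBI gene 216792; chr11:59155368-59164567) ranged from 4.40 to 7.17 CPM in controls and from 4.93 to 6.28 CPM in nKO, so the nKO range lay inside that of the controls. The log2 difference of -0.03, with SE 0.15 and a 95% interval from -0.37 to 0.30 (edgeR adjusted p = 0.982), changed sign to 0.037 without control 1, 0.054 without control 3 and 0.0090 without nKO 4.

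Nfu1 and Bola3, the genes for late delivery, lay on opposite sides of 0. Nfu1 (NCBI gene 56748; chr6:87009234-87028461) stood at 19.1, 22.7, 22.9, 21.3 and 22.1 CPM in controls and at 18.2, 21.2, 22.3, 22.02 and 15.999 CPM in nKO. The groups overlapped, with nKO 5 lowest. The log2 difference of -0.12, with SE 0.11 and a 95% interval from -0.35 to 0.12 (edgeR adjusted p = 0.870), came to -0.05 without nKO 5 and to -0.20 without control 1 and nKO 4. Bola3 (NCBI gene 78653; chr6:83349147-83360136) stood at 9.97, 10.04, 8.07, 11.8 and 11.5 CPM in controls and at 11.5, 11.1, 12.8, 11.7 and 12.1 CPM in nKO. As for Isca1, control 3 was lowest and control 4 was highest among controls, inside the nKO range. The log2 difference of Bola3 was 0.21, with SE 0.12 and a 95% interval from -0.04 to 0.46 (edgeR adjusted p = 0.825), or 0.13 without control 3 and 0.09 without controls 1 and 3.

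Ratios of TPM within a library do not depend on how libraries are scaled to each other, and 5 were compared, each by an exact two-sided permutation test with Benjamini-Hochberg adjustment over the 5. The ratio of Isca1 to Isca2 was 2.74, 2.17, 1.38, 3.47 and 2.88 in controls and 3.59, 3.33, 3.56, 3.48 and 3.26 in nKO. Of the controls only control 4 reached the nKO range. The log2 difference was 0.51 (exact permutation p = 0.0238, adjusted 0.0992), and 0.31 without control 3. For Nfu1 to Bola3 the ratio averaged 5.96 ± 1.16 in controls against 4.68 ± 0.632 in nKO (SD, n = 5 each), a log2 difference of -0.34 (exact permutation p = 0.0397, adjusted 0.0992). Both missed the 5% threshold with all libraries and in 12 of 13 alternatives each. Without control 3 the adjusted permutation values were 0.159 and 0.218. Only without control 4 did both reach an adjusted value of 0.0397, with log2 differences of 0.64 and -0.40. Control 4 was the only control within the nKO range of either ratio, so leaving it out separates the groups fully.

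The desulfurase gene was set against its stabilising subunit and against the scaffold. Lyrm4 to Nfs1 averaged 0.932 ± 0.101 in controls against 1.09 ± 0.174 in nKO (SD, n = 5 each), and the groups overlapped (log2 difference 0.22, exact permutation p = 0.135, adjusted 0.225). Without nKO 1, the only nKO library within the control range, the log2 difference was 0.31 with an adjusted value of 0.0397. Without control 1 and nKO 4 it was 0.09, with an adjusted permutation value of 0.607. Iscu to Nfs1 was 3.26 ± 0.217 and 3.43 ± 0.279 (SD, n = 5 each; exact permutation p = 0.357, adjusted 0.446). Hscb to Iscu was 0.0962 ± 0.0129 and 0.0914 ± 0.0189 (SD, n = 5 each; exact permutation p = 0.579, adjusted 0.579). In both of these ratios the groups overlapped, and the difference was smaller than the spread between animals.

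**Figure D4:**
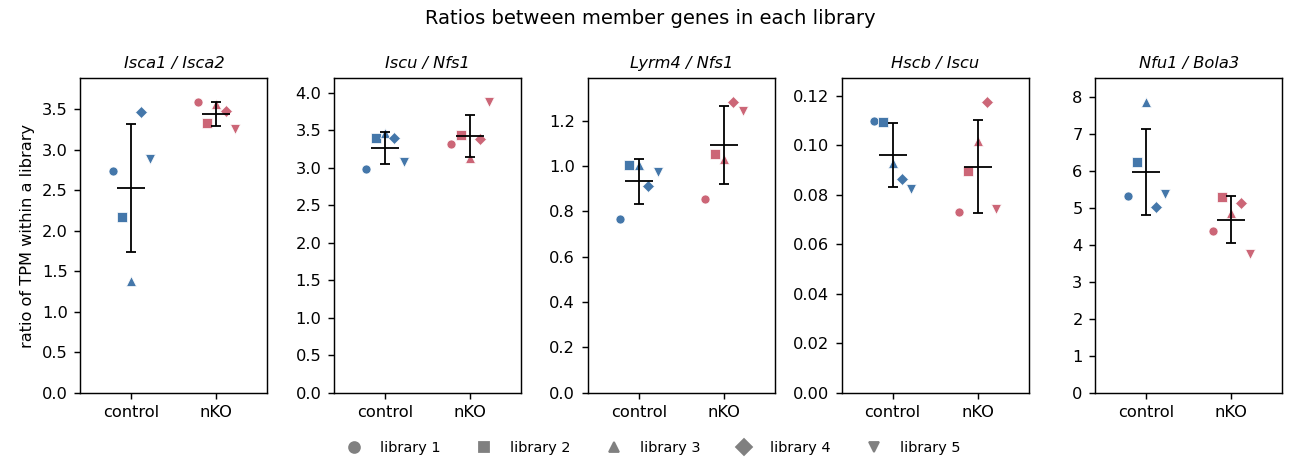
Ratio of TPM between member genes within each library (y axes start at 0; bars give the mean and SD of 5 libraries per group). The Isca1 to Isca2 ratio lies between 3.26 and 3.59 in all nKO libraries and between 1.38 and 3.47 in controls, and the groups overlap in all 5 ratios.

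The transcript tables list more than 1 RefSeq transcript for Iscu, Hscb, Iba57, Nfu1 and Bola3. Most of the Iscu signal, 93.6% ± 2.51 in controls against 94.3% ± 3.08 in nKO (SD, n = 5 each), was assigned to NM_025526. For Nfu1, NM_020045 held 85.9% ± 8.16 and 89.7% ± 2.79, and for Hscb, NM_153571 held 87.9% ± 8.89 and 88.8% ± 6.92 (SD, n = 5 each). For Iba57, NM_173785 (4027 bases, against 935 for the other transcript) held 75.4% ± 6.59 in controls against 69.6% ± 8.19 in nKO (SD, n = 5 each). That difference of -5.80 percentage points came to -1.59 with shares of estimated counts, which are not corrected for length. None of the 5 shares passed a test against the spread between animals (exact two-sided permutation tests, p from 0.246 to 0.857, adjusted from 0.741 to 0.857). For Bola3, NM_175277 held all or nearly all of the signal in 9 libraries and 0% in nKO 5, where NM_001363772, which is 2294 bases long against 2282, was given 13.9 TPM. The Bola3 total of that library, 12.1 CPM, was within the nKO range.

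Partner genes of the pathway had no member past the test. Of 18 genes such as Fdx2, Glrx5 and Hspa9, all 18 were tested, 12 were lower and 6 higher, the median log2 fold change was -0.02, and 0 passed 5% by edgeR, DESeq2 or limma-voom. At an unadjusted p under 0.05 were 1 lower and 1 higher, against 2.29% and 3.36% of all genes, and both encode mitochondrial iron importers. Slc25a37 (mitoferrin 1) stood at 19.5 ± 1.96 CPM in controls against 22.7 ± 1.33 CPM in nKO (SD, n = 5 each; log2 fold change 0.22, SE 0.09; edgeR adjusted p = 0.820). Its groups did not overlap, as for 1.38% of all genes. Slc25a28, which encodes its paralogue, stood at 18.0 ± 2.59 and 14.8 ± 1.83 CPM (SD, n = 5 each; log2 fold change -0.28, SE 0.12; edgeR adjusted p = 0.820). Bola1, a relative of Bola3, stood at -0.40 with SE 0.25.

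Genes of the cytosolic assembly machinery, which receives its sulfur from mitochondria, were lower in 10 of 11 (median log2 fold change -0.13), where 52.2% of all genes were lower. Its member Narfl, also called Ciao3, averaged 20.8 ± 3.48 CPM in controls against 17.4 ± 2.57 CPM in nKO (SD, n = 5 each), a log2 fold change of -0.26 with SE 0.13. Nubp2, a scaffold subunit, followed at -0.21 with SE 0.12 and Ciapin1, an electron donor, at -0.13 with SE 0.07. Genes for mitochondrial proteins that hold clusters were lower in 14 of 15 (median -0.11). Ndufv1, a complex I subunit, stood at -0.28 with SE 0.12 and Uqcrfs1, the Rieske protein of complex III, at -0.16 with SE 0.08. Genes for cytosolic and nuclear cluster proteins were lower in 13 of 22 (median -0.06). Genes of lipoylation and lipoyl enzymes were lower in 6 of 9 (median -0.09). Of these, lipoyl synthase (Lias) stood at -0.11 (SE 0.08), Dlst at -0.18 (SE 0.09) and Dld at 0.15 (SE 0.09). In the cytosolic and nuclear list the smallest p-values were those of Dph2 and Dph1, for diphthamide synthesis, at -0.28 and -0.27 (SE 0.13 each), and Xdh, xanthine dehydrogenase, at 0.32 (SE 0.18). Of 12 tested genes of cellular iron handling 8 were lower and 4 higher (median -0.05), and Ftmt and Hamp had 0 reads in every library. The smallest p-values there were those of the importer Slc39a14, higher at 0.15 (SE 0.07), and of the exporter Slc40a1 and Aco1, lower at -0.18 (SE 0.14) and -0.09 (SE 0.08). By edgeR, DESeq2 or limma-voom 0 genes of these 5 lists passed 5%. At an unadjusted p under 0.05 were 2 genes, both lower, among the mitochondrial cluster proteins and 0 in the other 4 lists.

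Transcript length and cell type markers were set beside these values. Genes in the shortest quartile of length had a median log2 fold change of -0.07 and those in the longest 0.05. By library, the longest quartile minus the shortest (medians of log2 CPM against each gene's mean) ran from -0.13 in control 1 to 0.17 in nKO 4. It was 0.03 in control 2, above its values in nKO 2, nKO 3 and nKO 5. Iscu, Lyrm4, Hscb, Isca2 and Nfu1 fall in the shortest quartile, Nfs1, Isca1 and Bola3 in the second and Iba57 in the third. Against the median of their own quartile, Nfs1 stood at -0.21, Hscb at -0.18, Iscu at -0.10, Nfu1 at -0.05, Iba57 at -0.04 and Isca2 at -0.01, while Lyrm4 stood at 0.11, Bola3 at 0.24 and Isca1 at 0.42. For the genes of the shortest quartile these log2 values were shifts from -0.25 for Hscb, -0.17 for Iscu and -0.12 for Nfu1. The starting values were -0.09 for Isca2 and 0.04 for Lyrm4. Defining cortical markers were present: the summed TPM of 5 excitatory neuron markers was 1184 to 1468 in controls and 1436 to 1606 in nKO, with 4 of 5 genes higher. Of these, the deep-layer factor Tbr1 averaged 34.5 ± 6.55 CPM in controls against 51.1 ± 8.71 CPM in nKO (SD, n = 5 each), a log2 fold change of 0.57 with SE 0.14. Astrocyte markers were lower in 5 of 5, with summed TPM of 649 to 813 in controls and 691 to 802 in nKO, and Gja1 stood at -0.18 with SE 0.06. Inhibitory neuron, oligodendrocyte, microglia and vascular marker sums overlapped between the groups, as did those of blood (59.1 to 219 against 40.2 to 188 TPM) and neighbouring tissue (95.5 to 127 against 98.0 to 129 TPM). Within those lists Gad2 of inhibitory neurons stood at 0.16 with SE 0.07 and Flt1 of vessels at 0.32 with SE 0.10. Of 5 inhibitory neuron markers 3 were lower and 2 higher. Of 5 vascular markers 4 were higher and 1 was lower, namely Cldn5 at -0.52 with SE 0.26. Oligodendrocyte markers were lower in 4 of 5 and microglia markers in 3 of 5. Prox1, a marker of dentate gyrus granule cells in the neighbouring tissue list, averaged 10.4 ± 0.557 CPM in controls against 13.2 ± 1.10 CPM in nKO (SD, n = 5 each). Its groups did not overlap, as for 1.38% of all genes. The markers tested were 5 in each cell type list, 2 of blood and 4 of neighbouring tissue. Those with an unadjusted p under 0.05 were Tbr1, Gja1, Gad2, Flt1 and Prox1, where 5.65% of all genes were under it. Each of these 5 had an edgeR adjusted p of 0.820. The part of length, cell makeup or control 3 in the values of the 9 genes was not tested.

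The genes outside all lists whose standardised profile over the 10 libraries lay nearest to the mean profile of the 9 were Swsap1, Oat, Gcdh, Tmed3 and Tmem218. Their root mean square distances were 0.297, 0.368, 0.379, 0.380 and 0.388 SD units. The mean profile does not describe every member. It was standardised again after averaging, so its values are not plain means of the members' values. On that scale it was highest in control 3, at 1.75. There, each on its own scale, Isca1 stood at -2.42 and Bola3 at -2.32, and the other members stood above their own means. Oat and Gcdh encode mitochondrial matrix enzymes of ornithine and of lysine breakdown. Control 3 was the highest library for 3 of the 9 genes and the lowest for 2, and nKO 4 was the highest for 1 and the lowest for 2.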

How the data were processed

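Stranded total RNA libraries, depleted of ribosomal RNA, were made by the authors from TRIZOL extracts treated with DNase, as the extraction protocol in the labels states. Salmon, bcl2fastq, DESeq2 and mm10 are listed, without versions or roles, per the submitters' processing notes. Per the file headers, the authors deposited estimated counts, TPM, lengths and effective lengths for each gene and each RefSeq transcript. Salmon divides reads among similar transcripts that it is given, so values of near copies depend on that division. AK157302, Gm28036 and the pseudogenes of Iscu and Nfu1 were not listed under their GENCODE names. Any division of reads between them and the members could therefore not be seen.

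Estimated counts were rounded and filtered with filterByExpr (minimum count 10, minimum total 15), which kept 14378 genes. Depth was 14812639 to 24161361 counts. TMM scaling and the robust quasi-likelihood F test of edgeR 4.0.16 in R 4.3.3 compared 5 nKO with 5 control libraries, and p-values were adjusted by Benjamini-Hochberg across the 14378 genes. Each SE is the absolute log2 fold change over the root of its F statistic. The fit was checked on simulated counts. Intervals are for the log2 difference between the groups, and their width reflects the spread between these animals. Ratios of TPM and transcript shares (transcripts of at least 1 TPM) were compared by exact two-sided permutation tests, for which 0.00794 is the smallest p. Transcripts were matched to genes by RefSeq accession, and near copies were searched with BLAST 2.17.0.

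Named genes are the 9 members, Atad3a, up to 3 genes of each list with the smallest p, and the 5 nearest profiles. Genes named outside that rule, such as the divergent partners, were chosen for their role or position. Some genes that the rule or a list holds are not reported here. The members and lists were chosen with earlier results of these data known. Alternatives were DESeq2 1.42.0 (size factors and Wald test), library size alone, limma-voom (limma 3.58.1), other count filters, no robust estimation, length offsets, transcript sums, each library left out, and control 1 with nKO 4 left out. Leaving out controls 1 and 3 was chosen after seeing the data. A table of 22 genes on an unstated scale was not used.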

Additional observations from a re-analysis of the deposited data

Results flagged for a closer look

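The share of Bola3 signal assigned to its transcript NM_175277 was far from the other libraries of its group in nKO 5, at 0%, and in control 1, at 97.2%, where the other controls were at 100%. Each gap to the nearest library exceeded 0.71 of its group's range. These were 2 of 56 groups examined. By chance the limit marks about 5% of groups of normally spread values, a rate that does not hold for shares capped at 100%. With the other controls tied at 100%, any lower share in control 1 would have been marked.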

How the results depend on the processing

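No paired analysis was possible because the labels give no pairing of animals. The count of genes called was 2 in edgeR and 5 with the DESeq2 Wald test (2 lower, 3 higher), and ranged from 2 to 3 when 1 library was left out. Every one of the 9 genes stayed uncalled under all 21 alternatives, and 7 of them kept their direction; the exceptions were Lyrm4 and Iba57. The log2 fold change of Lyrm4 turned to -0.0042 with length offsets and -0.11 without control 1 and nKO 4, and ranged from -0.037 to 0.11 with 1 library left out. That of Iba57 turned to 0.11 with length offsets, 0.078 without control 1 and nKO 4 and 0.19 without controls 1 and 3, and ranged from -0.12 to 0.054 with 1 library left out. The median over the 9 genes stayed between -0.12 and -0.05. With 1 library left out, the log2 ratio differences ranged from 0.31 to 0.64 for Isca1 to Isca2, 0.15 to 0.31 for Lyrm4 to Nfs1 and -0.40 to -0.23 for Nfu1 to Bola3. The difference in share, in percentage points, ranged from -0.33 to 1.81 for NM_025526 of Iscu from -2.43 to 3.09 for NM_153571 of Hscb, from 0.83 to 5.88 for NM_020045 of Nfu1, from -26.001 to -1.001 for NM_175277 of Bola3 (the latter without nKO 5) and from -8.24 to -3.59 for NM_173785 of Iba57. The cause of these changes was not tested. The member with the fewest reads, Hscb, had 36 to 84 per library.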
